A study of Homo sapiens with 2 samples.

Results

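The TRIM family was examined in A549 cells, a human lung adenocarcinoma line, 48 h after transfection with a lipid reagent of a control siRNA or of an siRNA against the long noncoding RNA MILIP (MAFG-AS1). The family was taken as every protein-coding gene whose symbol is TRIM followed by digits only, plus TRIML1 and TRIML2. This gave 69 of the 60711 genes listed. Each condition is 1 library of total RNA from the parental line. A single siRNA was therefore compared with its control, and no difference could be set against a spread between replicates.

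TRIM proteins carry a tripartite motif of a RING finger, 1 or more B-boxes and a coiled coil, and most act as E3 ligases that attach ubiquitin, or in some cases SUMO, to other proteins. The region after the coiled coil sets the substrate and divides the family. A PRY-SPRY domain is the most common form, NHL repeats bind RNA or protein, and a PHD finger with a bromodomain reads histone tails. The family is known for antiviral sensing, for silencing of retroelements and for control of p53, and the study addressed TRIML2 as a SUMO ligase for p53.

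Values are gene read counts that the authors had divided by a fixed factor for each library, and each value proved to be a whole multiple of the step that 1 read is worth. The control library sums to 20300800 such reads and the other to 19460956, and a gene with fewer than 20 reads is listed at 0. MILIP itself stood at 29.5 with its control and at 3.22 after the siRNA against it. The keratins KRT8 and KRT18 and the aldo-keto reductase AKR1B10, which is typical of A549, were abundant in both libraries, with 2543 and 2875 for KRT8. EPCAM was low, at 2.65 and 5.93. Markers of blood, endothelial and fibroblast cells were at 0 or had no value, and CDKN2A, which A549 cells have lost, had none.

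Of the 69 genes, 45 had a mean of at least 1 over both libraries and are described here. Values are given with control siRNA first and MILIP siRNA second. TRIM29 lay nearest below this level, listed at 0 and at 1.11, and TRIM46 lay nearest above it, at 1.15 and 2.06. A further 13 genes were listed at 0 in both libraries: TRIM15, TRIM17, TRIM34, TRIM40, TRIM49, TRIM55, TRIM61, TRIM63, TRIM71, TRIM72, TRIM74, TRIM75 and TRIML1. These include TRIM55 and TRIM63, muscle ring fingers of striated muscle, TRIM72, a membrane repair protein of muscle, and TRIM71, a stem cell protein. The last 10, TRIM10, TRIM42, TRIM43, TRIM48, TRIM50, TRIM51, TRIM58, TRIM60, TRIM64 and TRIM77, carry no value in the table.

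Per kilobase of annotated exon, TRIM28 was the most abundant member. TRIM28 (KAP1), the corepressor that KRAB zinc finger proteins recruit to silence retroelements, had a level of 203 per kb with control siRNA and 192 per kb with MILIP siRNA. No other member passed 36.8 per kb in either library. TRIM28 alone held 34.5% of the summed values of the 45 genes with control siRNA and 34.8% with MILIP siRNA. The next in order were TRIM16 at 26.4 and 36.8 per kb, TRIM47 at 26.9 and 11.2, TRIM65 at 16.6 and 13.5 and TRIM37 at 12.2 and 9.64. At the other end lay TRIM2 at 0.13 and 0.26 per kb, TRIM22 at 0.25 and 0.35 and TRIM73 at 0.24 and 0.41.

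The order of levels was not the same in the libraries. TRIML2 was in place 27 of 45 per kb with control siRNA and in place 3 with MILIP siRNA, at levels of 2.91 and 18.6 per kb. TRIM25 went the other way, from place 5 to place 27, at levels of 14.2 and 2.83 per kb. TRIM14 was in place 15 and in place 29, and TRIM44 in place 7 and in place 20.

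**Figure D1:**
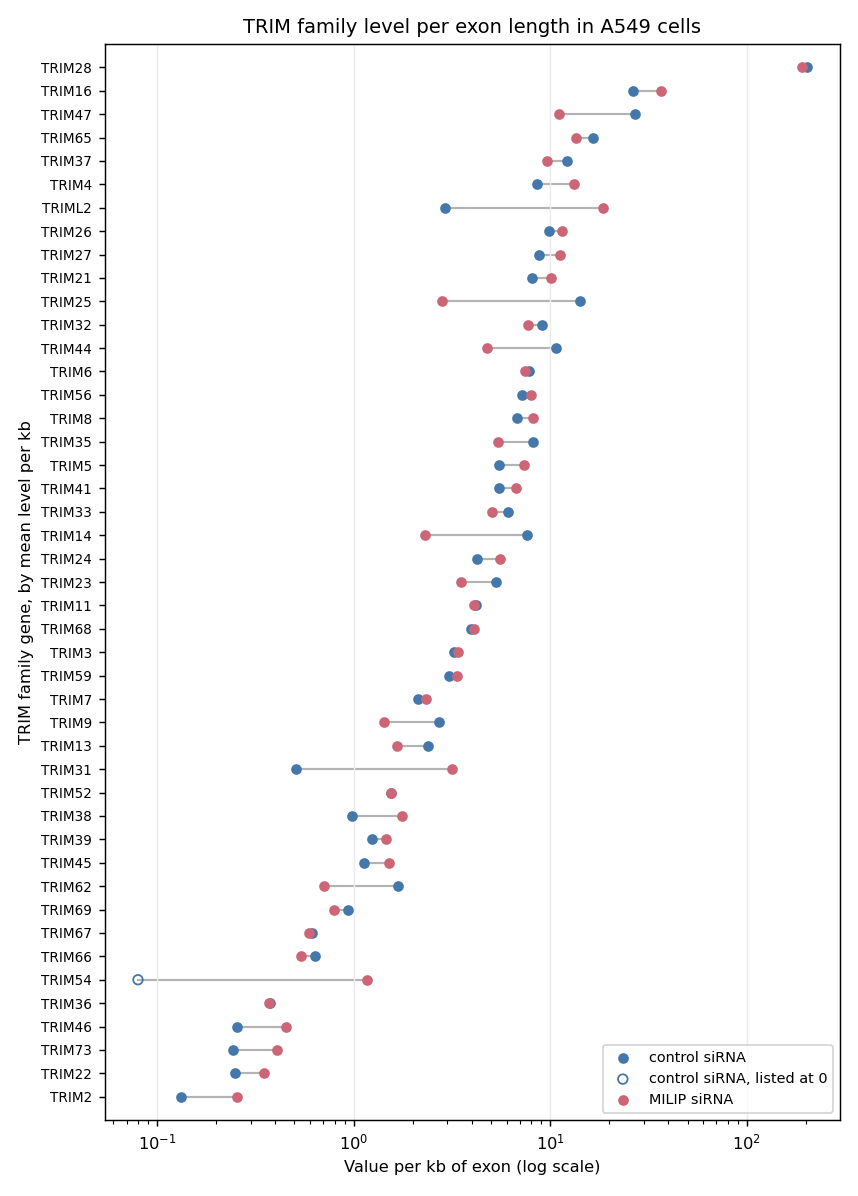
Level of each of the 45 described TRIM genes as the value per kb of exon (log axis) with control siRNA (blue) and MILIP siRNA (red), 1 library each; the open symbol marks TRIM54, which was listed at 0 and is drawn at the left edge. TRIM28 lies far to the right of all other members at 203 and 192 per kb, and the longest connecting lines between values above 0 belong to TRIML2, TRIM31 and TRIM25.

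The libraries were compared by the log2 of (MILIP siRNA + 1) over (control siRNA + 1), a scale on which the change of a low gene is understated, and a 1.5-fold difference was used as the rule of size. In this bulk RNA, fewer cells that express a gene and less RNA per cell cannot be told apart. Of the 45 members, 6 were higher and 6 were lower by this rule. Among all 13521 genes with a mean of at least 1, 11.1% were higher and 13.8% were lower, 25.0% in all, so that the 26.7% of the family past 1.5-fold was close to the share of all genes. Over the genes above 0 in both libraries, which leaves out TRIM54, the share was 25.0% of the family and 24.3% of all genes. With the trend with transcript GC content removed, 6 members were higher and 7 were lower, and the share of all genes was 23.1%. The median log2 ratio was 0.06 for the family and −0.03 for all genes. The values of the 45 genes summed to 2369 with control siRNA and 2224 with MILIP siRNA.

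At 2-fold, 3 members were higher (TRIML2, TRIM31 and TRIM54) and 4 were lower (TRIM25, TRIM14, TRIM47 and TRIM44), where all genes gave 3.48% and 4.62%, or 8.11% in all. TRIM54 was listed at 0 with control siRNA and entered the described genes only through its other value. Another 17 members lay within 1.2-fold, 37.8% of the family against 42.5% of all genes. Exact 95% limits (Clopper-Pearson) on the ratio without the pseudocount show how far the read numbers fix each ratio. They cover counting error only and not the variation between cultures or library preparations. By these limits the ratio lay above 1 for 17 of the 44 members above 0 in both libraries, below 1 for 14 and on either side of it for 13. Over all genes, 30.4% lay above 1 and 36.8% below 1 by the same limits.

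**Figure D2:**
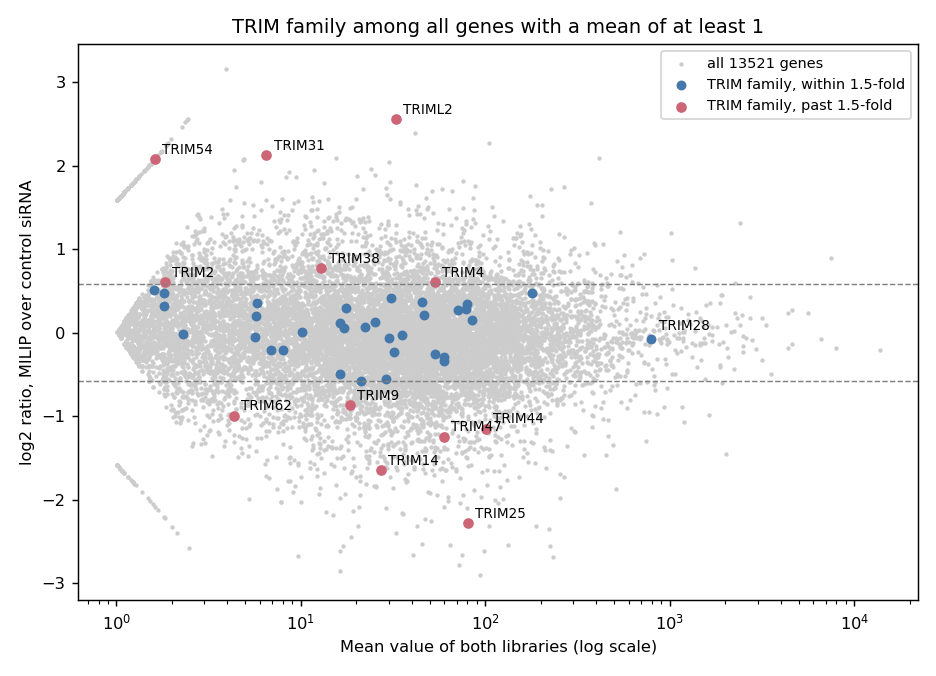
Log2 ratio of MILIP siRNA over control siRNA against the mean value of both libraries (log axis) for 13521 genes (grey), with the TRIM family in blue (within 1.5-fold) and red (past 1.5-fold); dashed lines mark 1.5-fold. The 12 red points lie 6 above and 6 below the lines, and TRIML2 and TRIM25 are the highest and the lowest of the family at 2.55 and −2.29, inside the range of all genes from −2.90 to 3.15.

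TRIML2 had the highest log2 ratio of the family. TRIML2 (ENSG00000179046) encodes tripartite motif family-like 2 and occupies chr4:188091273-188109603 on the − strand of GRCh38. Its value was 8.87 in the control library and 56.9 after MILIP siRNA, from 177 and 1131 reads. This is a 6.41-fold ratio with limits of 5.47 and 7.56. Its share of the summed family values was 0.37% with control siRNA and 2.56% with MILIP siRNA. TRIML1, the closest relative by name, begins 29815 bases further along on the + strand and was listed at 0 in both libraries, which stands for fewer than 20 reads in each.

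TRIM31, an E3 ligase of the gut epithelium that acts on the antiviral adaptor MAVS, was the other member with a large ratio in this direction. It lies in the major histocompatibility region at chr6:30102897-30113106. Its values were 1.80 and 11.2. The ratio of 6.22-fold rests on 36 and 223 reads, so that its limits run from 4.36 to 9.11. TRIM54, the muscle ring finger MuRF3, was listed at 0 and at 3.22, the latter from 64 reads. Its place among the higher members rests on the pseudocount, and no fold is given.

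The remaining 3 of the higher members had smaller ratios. TRIM38, an E3 ligase that limits Toll-like receptor signaling, had values of 9.27 and 16.5 and a log2 ratio of 0.77. TRIM4, which ubiquitinates the RNA sensor RIG-I, had values of 42.0 and 64.5 and a log2 ratio of 0.61. TRIM2, a neuronal ligase for neurofilament light chain, had values of 1.25 and 2.41 and a log2 ratio of 0.60, from 25 and 48 reads. TRIM4, with 839 reads in the control library, had the most reads of the 6. TRIM2 and TRIM4 lie close to the 1.5-fold line, which is a log2 ratio of 0.58.

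TRIM25 had the lowest log2 ratio of the family, −2.29. TRIM25 is an interferon-inducible E3 ligase that ubiquitinates RIG-I, and it occupies chr17:56836387-56914080 on the − strand. Its value was 135 in the control library and 26.8 after MILIP siRNA, from 2690 and 534 reads. The control value was 5.02 times the other, with limits of 4.57 and 5.52. The difference in value, MILIP siRNA minus control siRNA, was −108 for TRIM25, the furthest below 0 in the family, and −77.2 for TRIM44.

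TRIM14, a mitochondrial adaptor that binds MAVS and carries no RING finger, had values of 41.6 and 12.6. Its control value was 3.30 times the other (limits 2.86 and 3.81). TRIM14 shares 7.72% of its exon bases with NANS on the opposite strand, which was listed at 27.0 and 38.5, and strand use in counting is not given in the sources used here. TRIM44, a member without RING finger that carries a ubiquitin protease type zinc finger, had values of 140 and 62.3, and the control value was 2.24 times the other (limits 2.09 and 2.40).

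TRIM47, an E3 ligase with a PRY-SPRY domain, had values of 84.4 and 35.0, and the control value was 2.41 times the other (limits 2.20 and 2.63). It lies on chromosome 17 at 1759 bases from TRIM65, on the same strand. TRIM65, which ubiquitinates the RNA sensor MDA5, had values of 65.6 and 53.5 and a log2 ratio of −0.29. These neighbours thus lay on different sides of the 1.5-fold line, and their limits, −1.40 to −1.14 for TRIM47 and −0.41 to −0.17 for TRIM65, did not overlap. An antisense gene, AC087289.5, covers 51.5% of the exon bases of TRIM47, with values of 1.30 and 1.16.

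TRIM62 and TRIM9 complete the lower members. TRIM62, a regulator of epithelial polarity, was listed at 6.11 and 2.56, from 122 and 51 reads. TRIM9, a neuronal ligase that binds the netrin receptor DCC, was listed at 24.2 and 12.8, and the control value was 1.89 times the other (limits 1.62 and 2.21). TRIM23 and TRIM35 stopped just short of the line with log2 ratios of −0.58 and −0.56, and without the pseudocount their control values were 1.52 and 1.49 times the others. Their values were 25.6 and 16.8 for TRIM23, which carries an ARF-type GTPase domain, and 34.8 and 23.3 for TRIM35.

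The promoters of the members with the highest and the lowest ratios above 0 in both libraries are shown, 2 of each, so that their sequence can be read beside their values. Each is 300 bases on the strand of the gene, with 250 before and 50 after the RefSeq start (GRCh38.p14). Capitals mark matches on either strand to the E-box CACGTG, the interferon response element GAAANNGAAA, the GC box GGGCGG and the TATA box TATAAA. A p53 half-site was also searched. TRIML2 is at chr4:188109554-188109853, TRIM31 at chr6:30113041-30113340, TRIM25 at chr17:56914000-56914299 and TRIM14 at chr9:98119173-98119472, all on the − strand.
TRIML2: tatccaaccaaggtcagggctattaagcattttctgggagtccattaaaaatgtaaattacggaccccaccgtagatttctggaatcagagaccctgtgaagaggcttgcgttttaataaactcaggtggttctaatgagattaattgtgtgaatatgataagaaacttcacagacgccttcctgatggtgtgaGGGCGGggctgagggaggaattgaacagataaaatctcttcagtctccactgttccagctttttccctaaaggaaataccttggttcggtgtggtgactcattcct
TRIM31: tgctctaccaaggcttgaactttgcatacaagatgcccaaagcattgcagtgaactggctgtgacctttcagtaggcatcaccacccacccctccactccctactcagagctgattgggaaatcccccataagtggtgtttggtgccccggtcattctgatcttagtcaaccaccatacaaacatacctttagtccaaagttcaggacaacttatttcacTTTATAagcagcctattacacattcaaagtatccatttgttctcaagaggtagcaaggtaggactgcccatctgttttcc
TRIM25: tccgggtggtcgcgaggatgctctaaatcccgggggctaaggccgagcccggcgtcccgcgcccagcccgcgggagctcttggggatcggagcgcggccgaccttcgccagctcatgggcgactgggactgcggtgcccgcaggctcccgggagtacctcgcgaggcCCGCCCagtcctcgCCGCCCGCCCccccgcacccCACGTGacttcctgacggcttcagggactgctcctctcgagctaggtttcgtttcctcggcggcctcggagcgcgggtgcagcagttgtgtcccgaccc
TRIM14: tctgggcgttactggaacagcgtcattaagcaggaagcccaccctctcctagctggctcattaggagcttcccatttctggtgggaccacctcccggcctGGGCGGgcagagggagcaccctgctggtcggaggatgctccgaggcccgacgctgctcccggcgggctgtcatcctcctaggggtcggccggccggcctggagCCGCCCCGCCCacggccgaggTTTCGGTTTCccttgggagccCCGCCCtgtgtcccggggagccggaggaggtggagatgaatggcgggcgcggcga
The promoters of TRIML2 and TRIM31 hold 43.3% and 45.7% G and C and those of TRIM25 and TRIM14 hold 72.3% and 69.3%. TRIML2 has a single GC box and TRIM31 a single TATA box. TRIM25 has an E-box and 3 GC boxes, of which a pair overlap, and TRIM14 has an interferon response element and 4 GC boxes, again with an overlapping pair. None of these promoters has a p53 half-site within the 300 bases, which says nothing of sites elsewhere. Over the 27305 RefSeq promoters of this length, 7.43% hold the E-box, 3.65% the interferon response element, 44.6% the GC box and 6.54% the p53 half-site. A match describes the sequence and is not evidence of binding.

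Grouped by C-terminal region, the 22 described genes with a PRY-SPRY domain and no COS box held TRIML2 and TRIM25, the extremes of the family. In this group 3 were higher (TRIML2, TRIM38 and TRIM4), 4 were lower (TRIM25, TRIM14, TRIM47 and TRIM62) and 15 were within 1.5-fold, with a median log2 ratio of 0.16. The share past 1.5-fold was 31.8%, against 25.0% of all genes. TRIM16, which acts in the autophagy of damaged lysosomes, had the highest mean level per kb of them, with values of 149 and 207 and a log2 ratio of 0.47. TRIM16 has a near-identical copy, TRIM16L, listed at 296 and 492, so that reads could be split between them, and both values are uncertain. TRIM27 was listed at 70.4 and 89.6, TRIM41 at 70.3 and 85.9 and TRIM26 at 43.3 and 50.1.

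The 4 genes with a PHD finger and a bromodomain were within 1.5-fold, as were 10145 of all 13521 genes. TRIM28 had values of 817 and 775, from 16318 and 15404 reads, and its log2 ratio of −0.08 had limits of −0.11 and −0.05. TRIM33, which acts on SMAD signaling, had values of 58.5 and 48.6. TRIM24 was higher with MILIP siRNA at 39.4 and 51.1, a log2 ratio of 0.37 within the 1.5-fold line. TRIM66 was listed at 7.46 and 6.34, and limits of −0.59 and 0.12 left its direction undecided. Its exons meet those of RPL27A, an abundant ribosomal gene listed at 1014 and 925, over 0.80% of their length.

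Of the 4 described genes in the NHL repeat group, TRIM2 was higher, which is 25.0%, the same share as over all genes. TRIM3, TRIM32 and TRIM45 were within 1.5-fold, and TRIM45 was placed there by the list without being an NHL repeat protein. TRIM32, a ligase known from limb-girdle muscular dystrophy, had the highest level per kb of these, with values of 34.5 and 29.3. The 6 genes with no annotated C-terminal domain held TRIM31 above and TRIM44 below the line, 33.3% against 25.0% of all genes. TRIM56, which acts in cytosolic DNA sensing, was listed at 80.0 and 88.9, TRIM8 at 64.6 and 78.1 and TRIM52 at 10.1 and 10.2. TRIM73 was low at 1.35 and 2.26 and has a near-identical copy in TRIM74, listed at 0.

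Of the 4 described genes with a COS box and a fibronectin type III domain, TRIM9 was lower and TRIM36, TRIM46 and TRIM67 were within 1.5-fold. This is 25.0% past 1.5-fold, the same share as over all genes. TRIM37, TRIM23, TRIM13 and TRIM59, which end in a MATH domain, a GTPase domain or a membrane anchor, had a median log2 ratio of −0.42. All were within 1.5-fold, as were 10145 of all 13521 genes. TRIM37, a ligase needed to limit centriole assembly, had values of 67.0 and 52.8. TRIM59 was listed at 24.1 and 26.4 and shares 19.8% of its exon bases with SMC4 on the opposite strand, which was listed at 242 and 171.

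**Figure D3:**
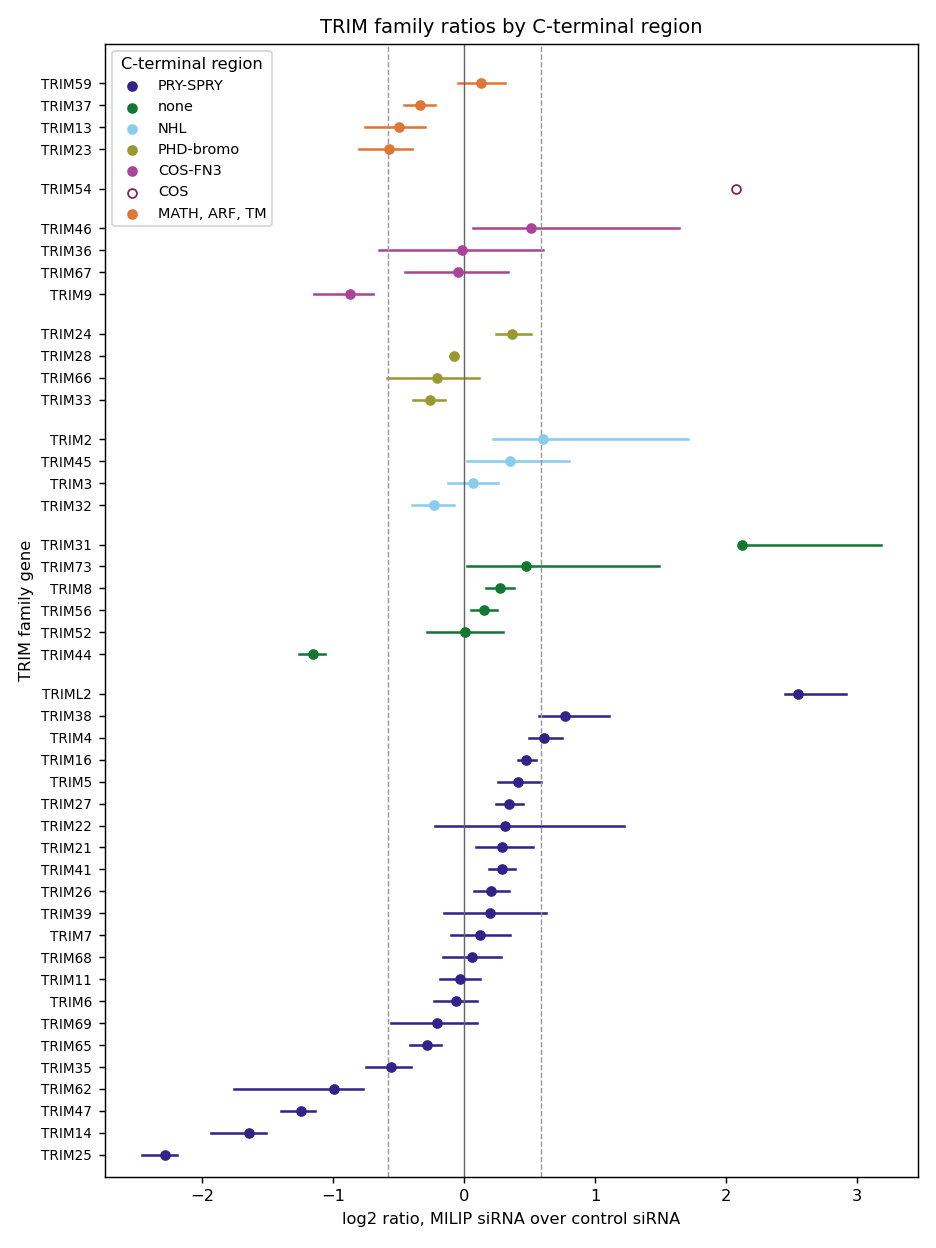
Log2 ratio of MILIP siRNA over control siRNA with a pseudocount of 1 (points) for the 45 described TRIM genes, grouped and coloured by C-terminal region (TM, transmembrane). The PRY-SPRY group leaves out genes with a COS box, and TRIM45 is drawn in the NHL group without being an NHL repeat protein. Lines are exact 95% counting limits on the ratio without the pseudocount and dashed lines mark 1.5-fold. TRIML2 and TRIM25 stand at the ends of the PRY-SPRY group at 2.55 and −2.29, and TRIM54 (open) has no limits because it was listed at 0 with control siRNA.

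Family members sit in several gene clusters, and in some of these neighbours lay on different sides of the 1.5-fold line. In the cluster on chromosome 6, TRIM31, TRIM26 and TRIM39 were measured and TRIM40, TRIM10 and TRIM15 between them were at 0 or had no value. TRIM31 had a log2 ratio of 2.12, and TRIM26 and TRIM39 had 0.21 and 0.20. TRIM39 shares 29.5% of its exon bases with TRIM39-RPP21 on the same strand, which had no value, so its level is uncertain. The cluster on chromosome 11 holds TRIM21, TRIM68, TRIM6, TRIM34, TRIM5, TRIM22 and TRIM3. None of its 6 measured members passed 1.5-fold, against 25.0% of all genes. Their log2 ratios ran from −0.06 for TRIM6 to 0.41 for TRIM5. TRIM7, TRIM41 and TRIM52 on chromosome 5 had log2 ratios of 0.12, 0.29 and 0.01.

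A list of 12 TRIM genes of interferon and RNA sensing held TRIM25 and TRIM14, the lowest ratios of the family. It leaves out TRIM4 and TRIM31, which act on RIG-I and MAVS as given above. These were higher, at log2 ratios of 0.61 and 2.12, so the list does not cover all such members. Of the 11 described genes on the list, TRIM25 and TRIM14 were lower, TRIM38 was higher and 8 were within 1.5-fold, with a median log2 ratio of 0.15. TRIM5, the restriction factor for retroviral capsids, was listed at 26.4 and 35.5, a log2 ratio of 0.41. TRIM21, the cytosolic antibody receptor, had values of 15.7 and 19.4. TRIM22, another antiviral member, was low, with 30 and 42 reads, and TRIM6, which acts with the kinase IKKε, had values of 30.7 and 29.3. TRIM69 was listed at 8.67 and 7.39, and TRIM34 at 0. TRIM6 shares 29.3% of its exon bases with TRIM6-TRIM34 on the same strand, a gene without a value. Shared reads could be missing from TRIM6 and TRIM34, so the level of TRIM6 and the 0 of TRIM34 are uncertain. The 3 genes past 1.5-fold are 27.3% of those described, near the 25.0% of all genes.

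A list of 9 genes of the RIG-I pathway and related RNA sensing was read beside TRIM25 and TRIM14. Whether the values of these genes are linked to those of TRIM25 or TRIM14 was not tested. MAVS, the mitochondrial adaptor to which RIG-I signals, was lower, with values of 255 and 86.6 and a log2 ratio of −1.55 (limits −1.64 and −1.48). RIG-I itself (RIGI) had values of 14.5 and 12.4, with limits of −0.48 and 0.02. IFIH1, which encodes the sensor MDA5, and the transcription factor IRF7 were higher at low levels, 3.91 and 6.64 for IFIH1 and 3.51 and 7.09 for IRF7. The other 5 genes were within 1.5-fold, among them TBK1 at 70.5 and 48.7 and IRF3 at 91.2 and 83.3. Past 1.5-fold were 33.3% of the list, against 25.0% of all genes.

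A list of TRIM genes known to act on p53 or its ligase MDM2 held 10, of which 8 were described and TRIM29 and TRIM71 were not. The list is a selection and need not hold every such member, so its share and median hold for the listed genes only. TRIML2 was higher, TRIM25 was lower and 6 were within 1.5-fold, with a median log2 ratio of 0.02. TRIM24, a ubiquitin ligase for p53, had a log2 ratio of 0.37 (limits 0.24 and 0.51). TRIM28, which works with MDM2, was given above. TRIM13, an endoplasmic reticulum ligase that targets MDM2, had values of 19.3 and 13.4 and a log2 ratio of −0.50. TRIM59 and TRIM69, also on this list, had log2 ratios of 0.13 and −0.20. The 2 genes past 1.5-fold are 25.0% of those described, the same share as over all genes.

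Regulators of p53 outside the family were read beside these. The deubiquitinase gene USP7 was lower at 211 and 133, and MDM2 and MDM4 were within 1.5-fold at log2 ratios of 0.14 and −0.55. Of the 6 genes on the list of p53 and its regulators, 1 was higher and 1 was lower. This is 33.3% past 1.5-fold, against 25.0% of all genes. Of 14 genes of SUMO conjugation, NSMCE2 was higher, at 21.7 and 36.6, and PIAS3 was lower, at 27.3 and 16.5. These are 14.3% of the list, against 25.0% of all genes. UBA2, a subunit of the SUMO activating enzyme, had a log2 ratio of −0.50. No gene of this list came near the log2 ratio of TRIML2, the highest being 0.73 for NSMCE2.

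The partners of TRIM28 were listed apart. Of the 11 genes of its corepressor complexes, 4 were lower, 1 was higher and 6 were within 1.5-fold, with a median log2 ratio of −0.35. This is 45.5% past 1.5-fold, against 25.0% of all genes. The lower genes were SMARCAD1, CHD4, MORC3 and CBX5. SMARCAD1, a chromatin remodeler, was listed at 69.1 and 36.5, and CHD4, the remodeling subunit of NuRD, at 226 and 123. CBX5, which encodes HP1α, had values of 287 and 180, whereas CBX1, which encodes HP1β, had values of 150 and 227. CHD3, a relative of CHD4, was listed at 240 and 358, within 1.5-fold. SETDB1, the histone methyltransferase that TRIM28 recruits, had values of 26.3 and 20.2 and a log2 ratio of −0.37.

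TRIM family proteins that go by other symbols were counted apart. Of 11, 8 were described, with 1 higher, 2 lower and a median log2 ratio of −0.44. The 3 are 37.5% of those described, against 25.0% of all genes. TRIM16L was the higher one, as given above. MID1, the microtubule-bound ligase of Opitz syndrome, was lower at 291 and 183, and FSD1L was lower at 14.4 and 8.15. RNF135, which like TRIM25 acts on RIG-I, had values of 27.8 and 36.5. PML, the scaffold of nuclear bodies, was listed at 22.8 and 16.6, a log2 ratio of −0.43 (limits −0.66 and −0.25).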

How the data were processed

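The authors deposited 1 table for both libraries, in which the read signal of each gene is a count divided by a fixed factor. Per the labels, the submitters' processing notes name TopHat2 2.0.12, HTSeq 0.6.1 and hg38; the annotation, strand use and scaling method are not given in the sources used here. In each library every value above 0 lay within 0.1 of a whole multiple of 1 step, which was taken as 1 read, and none was below 20 steps. The columns of the authors' own fold change, p-value, q-value and call were not used. No library could be left out, and no count test could be run, with 1 library per condition, so all results are descriptions.

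Identifiers were matched to symbols by a table of Ensembl names and to GENCODE 29 (GRCh38) for type, position and exon length, taken over all annotated transcripts, which lowers the level per kb of genes with many isoforms. Genes with a mean of at least 1 were compared as log2 ratios with a pseudocount of 1 and a 1.5-fold rule. A promoter was matched for 35 of the 45 described genes. Named genes were TRIML1 and TRIML2, all members past 1.5-fold, the 5 highest and 3 lowest per kb, those on the interferon and p53 lists, the members on either side of a mean of 1, the 2 highest and 2 lowest of each other list, and some fixed genes such as MDM2 and PML. Some genes that this rule names are not reported here. Other named genes were chosen after their values were seen. The members, lists and tests were chosen with earlier results of these data known. Calculations were tested on simulated data. Python 3.11.15, matplotlib 3.10.9, scipy 1.17.1, numpy 2.4.6 and pandas 2.3.3 were used.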

Additional observations from a re-analysis of the deposited data

How the results depend on the processing

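No paired analysis was possible because only 1 library was made per condition. The numbers of TRIM genes past 1.5-fold, 6 higher and 6 lower, were compared with those under a pseudocount of 0.1 (8 and 7), scaling by the median of ratios (6 and 6), removal of the trend with transcript GC content (6 and 7, where all genes gave 10.2% and 12.9%), no filter on low values (7 and 6), a mean of at least 5 (4 and 5) and counting limits that exclude a ratio of 1 (5 and 6). Leaving out genes listed at 0 in 1 library, chosen after seeing the data, gave 5 and 6, where all genes gave 10.6% and 13.7%. The numbers over all genes moved as well, from 1507 higher and 1869 lower to 1799 and 2100 with a pseudocount of 0.1. They were 1635 and 1725 with scaling by the median of ratios and 2014 and 2187 with no filter. With a mean of at least 5 they were 1102 and 1633, and with counting limits 1416 and 1832. The filters also change how many genes enter. Under the smaller pseudocount TRIM46, TRIM73 and TRIM23 passed the line, and with the GC trend removed TRIM35 did. At 2-fold, a stricter rule that can only lower these numbers, 3 TRIM genes were higher and 4 lower, and of all genes 471 were higher and 625 lower. The median log2 ratio of the family ran from 0.03 to 0.09. The log2 ratio of TRIML2 ran from 2.55 to 2.67. No TRIM gene past 1.5-fold changed direction, but with the GC trend removed the log2 ratio of TRIM28 was −0.33 in place of −0.08 and that of TRIM47 was −1.46 in place of −1.24. With the GC trend removed 3 genes within 1.5-fold changed sign: TRIM36 from −0.02 to 0.19, TRIM6 from −0.06 to 0.03 and TRIM68 from 0.06 to just below 0. TRIM36 also changed sign under scaling by the median of ratios. Depth limits the low members most, such as TRIM46 and TRIM2 with 23 and 25 control reads.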

Other observations

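The interferon response element GAAANNGAAA, searched on both strands, occurs in the promoters of TRIM14, TRIM16, TRIM2, TRIM21, TRIM26, TRIM44, TRIM5 and TRIM69. This is 8 of the 35 described members with a RefSeq promoter, or 22.9%, where 3.65% of all promoters hold it. The GC box was held by 62.9% of these members and by 44.6% of all promoters. The 35 members all had a mean of at least 1, whereas the 27305 promoters were not filtered by level. The shares are therefore not a like comparison. Of the 8 genes with the interferon element, TRIM14 and TRIM44 were lower, TRIM2 was higher and 5 were within 1.5-fold, with a median log2 ratio of 0.25. The 27 members without it had a median of 0.01 and held 4 higher and 4 lower genes, TRIML2 and TRIM25 among them. The members were not chosen for this motif, and the shares describe the promoters and not the response to the siRNA.

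By level, 38 members had a mean of at least 5, of which 4 were higher and 5 were lower, 23.7% in all against 25.0% of all genes at that level. The 7 members with a mean from 1 to 5 held TRIM54 and TRIM2 above and TRIM62 below the line, 42.9% against 24.8% of all genes. TRIM54, listed at 0 with control siRNA, is among the 7 only through its value with MILIP siRNA. Its place above the line followed from that, so these shares are not a like comparison.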
